A study of Homo sapiens with 16 samples.

Results

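The genes described here encode the standard subunits of the proteasome and the factors that help its cap to assemble. They were chosen by name: the gene symbol had to be PSMA, PSMB, PSMC or PSMD followed by a number, and the immunoproteasome genes PSMB8, PSMB9 and PSMB10 were left out. The rule found 36 genes among the 60658 rows of each table, and used no measured value. Of these, 16 belong to the core particle (PSMA and PSMB) and 20 to the cap (PSMC and PSMD). Polyadenylated RNA was sequenced from MDA-MB-231, a human line of invasive breast cancer cells, in wild-type cells and in cells labelled BMAL1 knockout. Each genotype was given cisplatin, doxorubicin, tunicamycin or a control treatment, which makes 8 groups of 2 samples. The labels give neither doses nor times, and name no clone, so that loss of BMAL1 and any other difference between the knockout and wild-type cultures cannot be told apart. The authors deposited 4 tables, 1 for each treatment. Each holds 1 FPKM value per gene for the wild-type group and 1 for the knockout group, together with their Cuffdiff test of knockout against wild type. FPKM is a fragment count scaled to transcript length and to library size. Values of single samples were not used here, so a group level has no SD, and the error of a comparison is carried by the authors' test alone.

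The proteasome is the cell's main machine for breaking down proteins tagged with ubiquitin. Its core particle is a barrel of stacked rings: outer alpha rings (PSMA1 to PSMA7) gate the entry, and inner beta rings (PSMB1 to PSMB7) hold the catalytic subunits PSMB5 (chymotrypsin-like), PSMB6 (caspase-like) and PSMB7 (trypsin-like). The cap has a base, with a ring of ATPases that unfold substrates (PSMC1 to PSMC6) and the non-ATPase subunits PSMD1, PSMD2 and PSMD4, and a lid, whose subunit PSMD14 removes the ubiquitin chain. PSMD5, PSMD9 and PSMD10 are chaperones that assemble the ATPase ring and are not part of the finished particle. The transcription factor NRF1 (gene NFE2L1) raises proteasome genes together when proteasome activity is short, through antioxidant-type elements in their promoters. BMAL1 (gene ARNTL) is a core circadian clock factor that binds the E-box CACGTG together with CLOCK. Cisplatin crosslinks DNA, doxorubicin intercalates into DNA and poisons topoisomerase II, and tunicamycin blocks N-linked glycosylation and so stresses the endoplasmic reticulum.

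Promoter windows were read from RefSeq sequences on GRCh38.p14, from 250 bases before to 50 bases after each gene's RefSeq start, and 31 of the 36 genes matched an entry. The E-box CACGTG, searched on both strands, was found in 2 of these 31 windows (6.45%), PSMB3 and PSMD9, against 8.77% of the 27305 genes with a window. The antioxidant-type motif TGACNNNGC was found in 9 of 31 (29%) against 16.1% of all windows. The motif CCAAT was found in 17 of 31 (54.8%) against 39.7%. None of these motifs overlaps another in the stretches printed here. PSMB3 and PSMD9 are shown because they hold the E-box, and PSMD12 and PSMC6 because they were the cap genes with the lowest doxorubicin over control ratios in one genotype or the other. Each stretch runs 5′ to 3′ on the gene's strand and ends with the base before the gene's start in GENCODE 29, from which distances are counted, and capitals mark matches to the 3 motifs on either strand. A match describes the letters only.
PSMB3, chr17:38752491-38752735, plus strand: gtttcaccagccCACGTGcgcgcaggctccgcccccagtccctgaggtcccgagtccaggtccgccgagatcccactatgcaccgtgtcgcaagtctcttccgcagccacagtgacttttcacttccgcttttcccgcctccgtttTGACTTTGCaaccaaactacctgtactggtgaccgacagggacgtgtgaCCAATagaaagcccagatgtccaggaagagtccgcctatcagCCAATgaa
PSMD9, chr12:121888540-121888730, plus strand: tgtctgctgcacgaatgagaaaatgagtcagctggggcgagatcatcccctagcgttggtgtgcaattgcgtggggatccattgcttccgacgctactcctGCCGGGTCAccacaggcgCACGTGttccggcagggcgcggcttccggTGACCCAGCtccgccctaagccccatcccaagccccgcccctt
PSMD12, chr17:67366628-67366827, minus strand: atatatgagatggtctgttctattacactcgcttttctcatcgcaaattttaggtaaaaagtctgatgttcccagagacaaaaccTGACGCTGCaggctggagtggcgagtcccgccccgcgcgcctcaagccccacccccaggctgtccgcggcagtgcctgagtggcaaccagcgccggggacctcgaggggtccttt
PSMC6, chr14:52706950-52707171, plus strand: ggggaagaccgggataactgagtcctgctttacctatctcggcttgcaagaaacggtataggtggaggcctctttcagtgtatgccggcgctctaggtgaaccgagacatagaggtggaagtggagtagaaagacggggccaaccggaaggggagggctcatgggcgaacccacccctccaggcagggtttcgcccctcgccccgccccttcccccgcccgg
In PSMB3 the E-box began 233 bases before that start, the antioxidant-type motif 99 bases before it, and CCAAT 50 and 8 bases before it. In PSMD9 the E-box began 72 bases before the start, between antioxidant-type motifs at 90 and 43 bases. PSMD12 held an antioxidant-type motif 115 bases before its start. The PSMC6 stretch held none of the 3 motifs. The E-box holders went opposite ways: as given below, PSMB3 was called higher and PSMD9 lower in the knockout in all 4 treatments.

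The targeted gene ARNTL was at 5.67 FPKM in wild-type and 0.889 in knockout cells without drug, and at 1.31 and 0.474 with doxorubicin. It was at 1.26 and 0.941 with cisplatin (q = 0.467 in the authors' deposited table) and at 3.25 and 2.24 with tunicamycin (q = 0.0810 in the authors' deposited table), so that the label is not borne out by a called difference in these 2 treatments. The 8 groups showed mesenchymal and keratin transcripts, with VIM between 2883 and 6640 FPKM and KRT8 between 402 and 739, while ESR1 (0 to 0.196), PGR (0), the fibroblast gene DCN (0) and the leukocyte gene PTPRC (0 to 0.0135) were at or near 0. Some markers of the same lists were higher: luminal GATA3 (0.111 to 5.48), fibroblast COL1A1 (0.152 to 9.70) and leukocyte CD14 (0.511 to 2.03). Of the epithelial markers, EPCAM lay between 1.03 and 6.33 FPKM and CDH1 between 0 and 0.349. The share of summed FPKM on mitochondrial genes was lower in the knockout in every treatment, at 5.35% against 3.86% without drug and 17.0% against 11.1% with doxorubicin, and its part in the results was not tested. Each table was normalized on its own by the authors, so a level or ratio set across treatments also carries any difference between those normalizations. The tables give no read counts, and the depth is unknown. In bulk RNA, fewer cells with a transcript and less RNA per cell cannot be told apart.

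Of the 36 genes, 34 were expressed and tested in all 4 tables. The remaining 2 are tissue-specific core genes: PSMA8, the germ-line alpha subunit, was listed at 0 in every group, and PSMB11, the thymic beta subunit, lay between 0 and 0.140 FPKM. In untreated wild-type cells the 34 genes had a median of 144 FPKM and ran from 23.9 (PSMD5) to 824 (PSMD2). PSMD2, a large base subunit that docks ubiquitin-like proteins, had the highest level of the 34 in all 8 groups (694 to 1337 FPKM). The chaperones PSMD5 or PSMD10 were lowest in all 8. The core genes had a higher median level than the cap genes in every group, with a ratio of medians between 1.48 and 2.20. Together the 34 expressed genes made up 0.792% to 1.07% of all FPKM in a group.

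Subunits that enter the particle in equal numbers did not have equal transcript levels, and in the lid the inequality was largest with doxorubicin. Among the 8 lid genes, the highest level was 2.5 times the lowest in untreated wild-type cells and 3.12 times in untreated knockout cells. This ratio was 4.72 in wild-type and 4.38 in knockout cells with cisplatin, and 4.10 and 3.46 with tunicamycin. Under doxorubicin it was 17.6 in wild-type and 20.6 in knockout cells. In the beta ring the highest level was 5.44 times the lowest in untreated and 5.24 times in doxorubicin-treated wild-type cells, and 3.64 and 4.01 times in knockout cells. The beta ratios with cisplatin and tunicamycin were 5.32 and 5.32 in wild-type and 4.67 and 4.16 in knockout cells. Such ratios were not taken for genes outside the proteasome. The plot of levels by group shows the doxorubicin points of several lid and ATPase genes far to the left of the others in both genotypes.

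**Figure D1:**
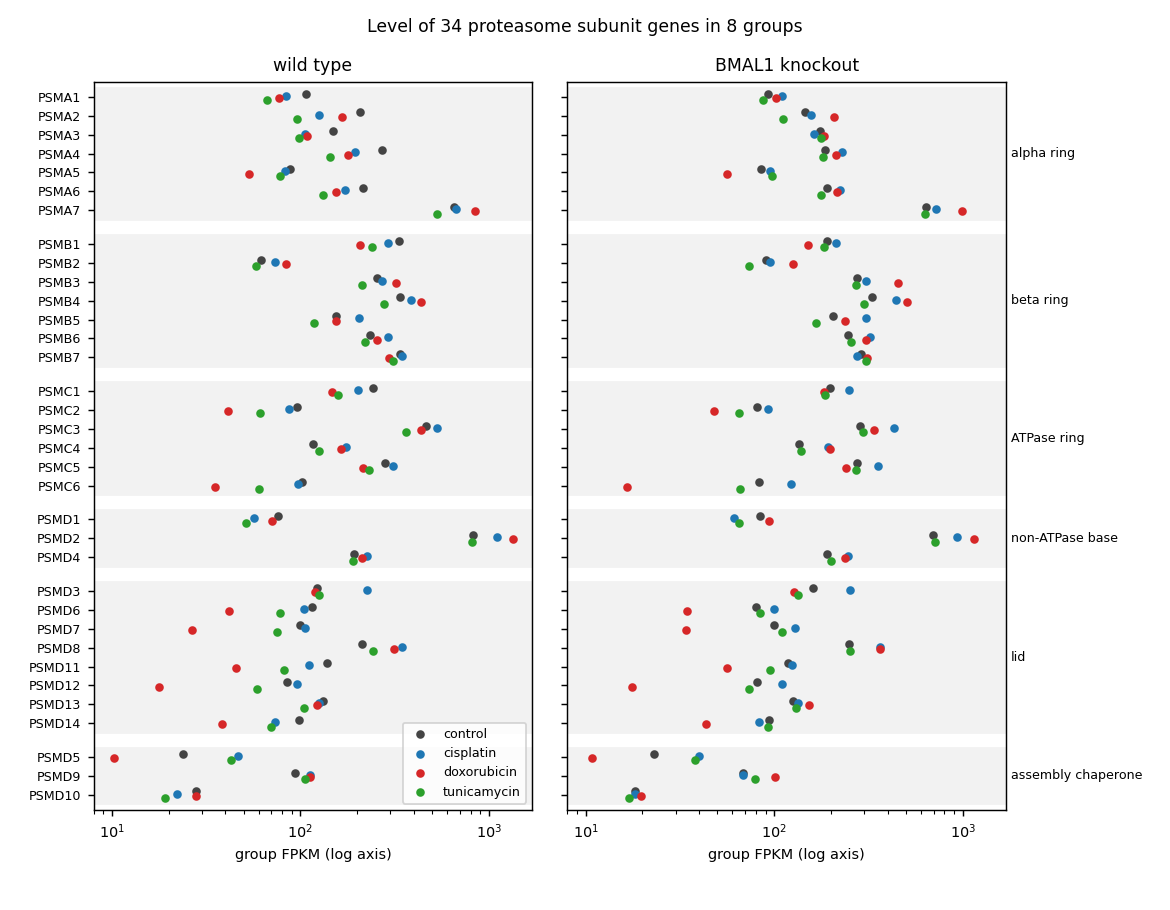
Group FPKM on a log axis for the 34 expressed genes, arranged by role, in wild-type (left) and BMAL1 knockout cells (right); each point is the authors' value for 1 group of 2 samples, coloured by treatment. Doxorubicin levels of PSMD12 and PSMD7 lie at 17.8 and 26.6 FPKM in wild-type cells, against 85.2 and 99.3 without drug.

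Loss of BMAL1 was first compared in cells without drug. There, 8 of the 34 genes were called higher and 15 lower in the knockout at q of 0.05 or less in the authors' Cuffdiff test, and 11 were not called. Calls were common in this table: 43.8% of all tested genes were called, 22.7% higher and 21.1% lower, and among tested genes at 50 FPKM or more, a level that most proteasome genes pass, 72.6% were, 37.6% higher and 35% lower. The members, at 23.5% higher and 44.1% lower, leaned further to the lower side than either background. Differences were small, with a median log2 ratio of knockout over wild type of -0.06 over the members and 0.01 over all tested genes. Only 3 members, PSMB1, PSMC3 and PSMD10, were called with a change of 1.5-fold or more, against 23.9% of all tested genes and 19.8% of abundant ones. Nothing in the labels says that the samples of a group came from separate cultures, so these p-values measure the spread between the samples, which may be technical.

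Under each drug the balance of calls was the other way. With cisplatin, 25 members were called higher and 5 lower in the knockout (73.5% and 14.7%), where 49.6% of all tested genes were called, 25.4% higher and 24.2% lower, and 78.8% of tested genes at 50 FPKM or more were, 45.7% higher and 33.1% lower. With doxorubicin, 24 were higher and 7 lower (70.6% and 20.6%). Of all genes tested there 45.1% were called, 24.4% higher and 20.7% lower, but of those at 50 FPKM or more 84% were, 59.7% higher and 24.4% lower. With tunicamycin, 26 were higher and 4 lower (76.5% and 11.8%), where 49.3% of all tested genes were called, 27.2% higher and 22.1% lower, and 80.7% of the abundant genes were, 56.8% higher and 23.9% lower. The members' median log2 ratios were 0.16, 0.21 and 0.21 with cisplatin, doxorubicin and tunicamycin, beside 0.07, 0.19 and 0.16 for tested genes at 50 FPKM or more. The doxorubicin median of the members thus lay 0.027 above that of abundant genes. Changes of 1.5-fold or more were called for 3, 4 and 1 members, against 20.7%, 24.6% and 20% of all tested genes and 10.5%, 17.5% and 12.7% of abundant ones.

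The alpha ring showed the widest gap between treatments. Without drug, 1 of its 7 genes (PSMA3) was called higher and 4 were called lower in the knockout. With cisplatin and tunicamycin all 7 were called higher, and with doxorubicin 6 were, the exception being PSMA5. No alpha gene was lower under any drug in the Cuffdiff test, also at an unadjusted p under 0.05. The median log2 ratio of the ring was -0.17 without drug and 0.32, 0.32 and 0.34 with cisplatin, doxorubicin and tunicamycin.
PSMA4 was at 269 FPKM in wild-type and 186 in knockout cells without drug, at 195 and 229.6 with cisplatin, at 178 and 212 with doxorubicin and at 144 and 182 with tunicamycin. The wild-type level was highest without drug and lower with each drug, while the knockout level lay between 182 and 229.6 throughout. The log2 ratio was -0.53 without drug and 0.24, 0.25 and 0.34 with the drugs, each at the smallest q of its table (0.000213, 0.000167, 0.000186 and 0.000173 in the authors' deposited tables).
PSMA2 had the same order of calls, with 208 and 146 FPKM in wild-type and knockout cells without drug, 125 and 156 with cisplatin, 165 and 206 with doxorubicin and 96.5 and 112 with tunicamycin. Its log2 ratios were -0.52, 0.32, 0.32 and 0.21.
PSMA1 was at 107 and 92.9 FPKM without drug, 83.7 and 110.0 with cisplatin, 76.7 and 102 with doxorubicin and 66.8 and 87.0 with tunicamycin, which gives log2 ratios of -0.21, 0.39, 0.41 and 0.38. PSMA6 was at 215 and 191 FPKM without drug, 173 and 223 with cisplatin, 154 and 216 with doxorubicin and 131 and 177 with tunicamycin, with log2 ratios of -0.17, 0.37, 0.49 and 0.43. In both, the untreated wild-type group was the highest of the 4 wild-type groups.
PSMA3 differed from these 4 in being called higher without drug as well. It was at 149.5 FPKM in wild-type and 175 in knockout cells without drug, 106 and 162 with cisplatin, 108.6 and 183 with doxorubicin and 97.9 and 176 with tunicamycin. Its log2 ratio of 0.85 with tunicamycin was the highest of any member in any treatment, and it also had the highest ratio with cisplatin (0.61) and doxorubicin (0.75). The knockout level of PSMA3 stayed between 162 and 183 FPKM while the wild-type level was 149.5 without drug and at most 108.6 with a drug.

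Of the 7 beta ring genes, 3 were called higher and 2 lower in the knockout without drug. The counts were 5 and 2 with cisplatin, 6 and 1 with doxorubicin and 5 and 1 with tunicamycin. The 3 catalytic subunits did not move alike.
PSMB5, the chymotrypsin-like subunit, was at 154 FPKM in wild-type and 204 in knockout cells without drug, 204 and 307 with cisplatin, 154 and 238 with doxorubicin and 118 and 166 with tunicamycin. It was higher in the knockout in each treatment, with log2 ratios of 0.40, 0.59, 0.62 and 0.49.
PSMB6, the caspase-like subunit, was at 234 and 246 FPKM without drug, 291 and 322 with cisplatin, 256 and 307 with doxorubicin and 219 and 255 with tunicamycin. Its log2 ratio was 0.07 without drug (q = 0.101 in the authors' deposited table) and 0.14, 0.27 and 0.22 with the drugs, all called higher.
PSMB7, the trypsin-like subunit, was at 338 and 290.0 FPKM without drug, 348 and 273 with cisplatin, 296 and 309.7 with doxorubicin and 311 and 305 with tunicamycin. It was called lower without drug (-0.22) and with cisplatin (-0.35), higher by a log2 ratio of 0.07 with doxorubicin (q = 0.0147 in the authors' deposited table), and was not called with tunicamycin (-0.03, q = 0.378 in the authors' deposited table). The doxorubicin value became -0.01 after centring on all genes of 5 FPKM or more, so its direction rests on the scaling.
Without drug, the structural subunits PSMB2 and PSMB1 had the highest and the lowest log2 ratio of the ring. PSMB1 was also the lowest with each drug, whereas PSMB5 was then the highest. PSMB2 was at 62.1 and 90.3 FPKM without drug, 73.0 and 94.5 with cisplatin, 83.6 and 127 with doxorubicin and 58.4 and 73.4 with tunicamycin, with log2 ratios of 0.54, 0.37, 0.60 and 0.33. PSMB1 was at 333 and 190.3 FPKM without drug, 293 and 214 with cisplatin, 207 and 150.2 with doxorubicin and 241 and 183 with tunicamycin, with log2 ratios of -0.81, -0.45, -0.47 and -0.39. Every wild-type level of PSMB1 except the doxorubicin value of 207 was above every knockout level of that gene.
PSMB3, one of the E-box holders, was at 255 and 275 FPKM without drug, 272 and 307 with cisplatin, 322 and 451 with doxorubicin and 213 and 272 with tunicamycin. It was called higher in the knockout in each treatment, with log2 ratios of 0.11, 0.18, 0.48 and 0.35.

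Among the 6 ATPases, 1 was called higher (PSMC4) and 4 lower without drug, and 4 were called higher with each drug. PSMC3 was called lower in all 4 treatments: it was at 464 and 286 FPKM without drug, 531 and 429.5 with cisplatin, 436 and 338 with doxorubicin and 365 and 297 with tunicamycin, with log2 ratios of -0.70, -0.31, -0.37 and -0.30. PSMC1 followed the alpha genes, at 243 and 197 FPKM without drug, 203 and 249.9 with cisplatin, 147 and 183 with doxorubicin and 159 and 186 with tunicamycin. Its log2 ratios were -0.30, 0.30, 0.32 and 0.23.
PSMC6 gave the lowest ratio of any member in any treatment. It was at 102 and 82.8 FPKM without drug, 97.5 and 123 with cisplatin, 35.3 and 16.5 with doxorubicin and 60.1 and 66.0 with tunicamycin, and the log2 ratio with doxorubicin was -1.10 (q = 0.000186 in the authors' deposited table). PSMC6 was called lower without drug (-0.30) and higher with cisplatin (0.33) and tunicamycin (0.14). Its doxorubicin levels in both genotypes lay under all its other levels.

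Of the 3 non-ATPase base subunits, 2 kept their calls across treatments. PSMD2 was lower in the knockout each time, at 824 and 694 FPKM without drug, 1110.1 and 928 with cisplatin, 1337 and 1145 with doxorubicin and 817 and 709 with tunicamycin, with log2 ratios between -0.26 and -0.21. PSMD1 was called higher each time, with log2 ratios of 0.14, 0.11, 0.40 and 0.34. PSMD4, a receptor for ubiquitin chains, was not called without drug (-0.01, q = 0.886 in the authors' deposited table) and was called higher with each drug by 0.08 to 0.16.

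Of the 8 lid genes, 2 were called higher and 2 lower without drug, 7 and 0 with cisplatin, 6 and 1 with doxorubicin and 8 and 0 with tunicamycin. The counts of 0 in the Cuffdiff test were also 0 at an unadjusted p under 0.05. PSMD14, the deubiquitinase, was at 98.5 and 94.0 FPKM without drug, 73.2 and 82.9 with cisplatin, 38.3 and 43.3 with doxorubicin and 70.0 and 92.8 with tunicamycin. Its log2 ratio was -0.07 without drug (q = 0.141 in the authors' deposited table) and 0.18, 0.17 and 0.41 with the drugs, all called higher.
PSMD7, the partner of PSMD14 in the lid, was at 99.3 and 99.8 FPKM without drug, 105 and 128 with cisplatin, 26.6 and 34.2 with doxorubicin and 75.1 and 110.2 with tunicamycin. The untreated groups were nearly level (0.01, q = 0.920 in the authors' deposited table), and the knockout was called higher with each drug (0.29, 0.36 and 0.55).
PSMD3 was at 123 and 161 FPKM without drug, 225.0 and 253 with cisplatin, 119.8 and 127 with doxorubicin and 125 and 134 with tunicamycin, and was called higher each time (0.39, 0.17, 0.09 and 0.10).
PSMD11 was called lower without drug (-0.23) and higher with each drug (0.16, 0.31 and 0.20). PSMD6 was called lower without drug (-0.52) and with doxorubicin (-0.28), and higher with tunicamycin (0.12).

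None of the 3 assembly chaperones was called higher in the knockout in any treatment by the Cuffdiff test, nor was any higher at an unadjusted p under 0.05. PSMD9, the other E-box holder, was at 93.4 and 68.2 FPKM without drug, 112 and 68.5 with cisplatin, 113 and 101 with doxorubicin and 106 and 79.2 with tunicamycin, with log2 ratios of -0.45, -0.71, -0.16 and -0.42, all called lower. PSMD10, also known as gankyrin, was at 28.1 and 18.2 FPKM without drug, 22.2 and 18.3 with cisplatin, 27.8 and 19.6 with doxorubicin and 19.2 and 16.9 with tunicamycin. It was called lower without drug (-0.62) and with doxorubicin (-0.50), and was not called with cisplatin (-0.28, q = 0.0612 in the authors' deposited table) or tunicamycin (-0.19, q = 0.0789 in the authors' deposited table). PSMD5 was called in no treatment, with log2 ratios between -0.21 and 0.08.

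**Figure D2:**
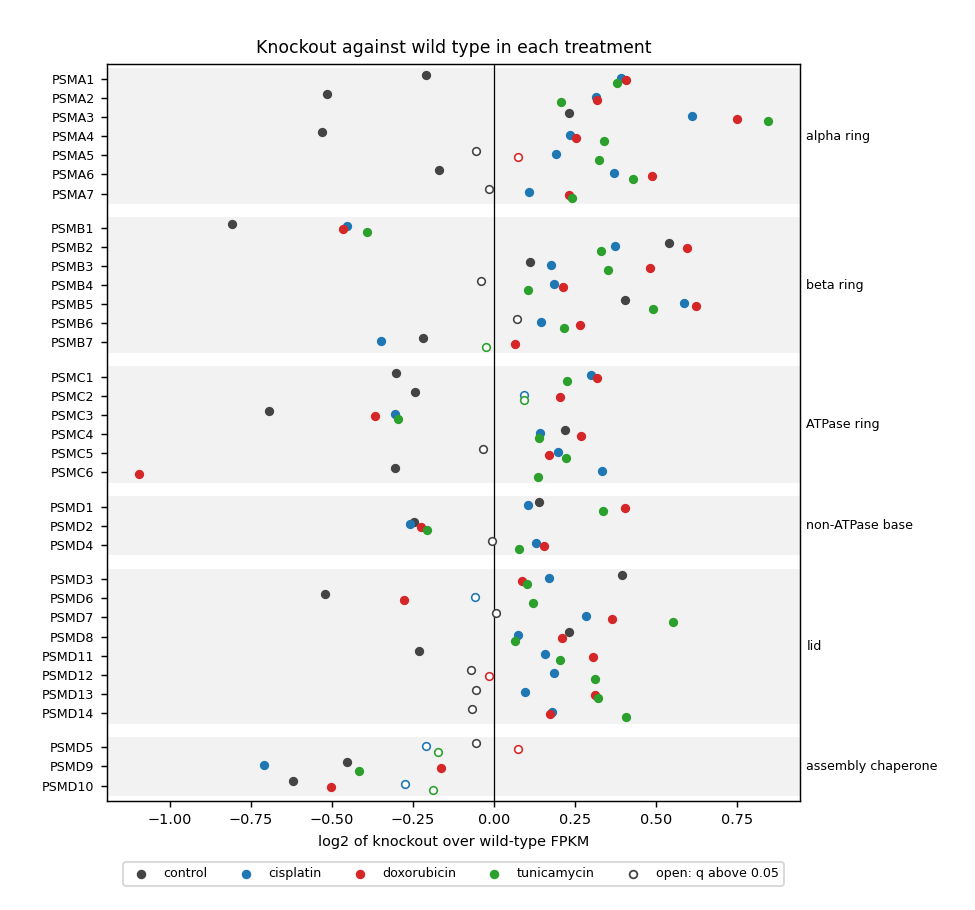
Log2 ratio of knockout over wild-type FPKM (horizontal axis) for the 34 expressed genes by role, 1 point for each treatment; filled points are called at q of 0.05 or less in the authors' test and open points are not. The untreated points of PSMA1, PSMA2, PSMA4 and PSMA6 lie left of 0 and their 3 drug points right of 0, while PSMB1, PSMC3, PSMD2 and PSMD9 stay left of 0 in all 4.

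Across the 4 tables, 8 members were called higher in the knockout every time (PSMA3, PSMB2, PSMB3, PSMB5, PSMC4, PSMD1, PSMD3 and PSMD8), where 9% of the 10881 genes tested in all tables were, and 19.8% of the 2140 such genes with a mean of 50 FPKM or more. PSMD8 with tunicamycin, at 0.07, became -0.01 after centring on all genes of 5 FPKM or more. Another 4 were called lower every time (PSMB1, PSMC3, PSMD2 and PSMD9), against 8.66% of all and 12.3% of abundant genes. A further 6 were called lower without drug and higher with all 3 drugs: PSMA1, PSMA2, PSMA4, PSMA6, PSMC1 and PSMD11. That pattern was held by 0.974% of the 10881 genes and by 4.49% of the abundant ones. In 8 more members (PSMA7, PSMB4, PSMB6, PSMC5, PSMD4, PSMD7, PSMD13 and PSMD14) the untreated difference was not called and the knockout was higher with all 3 drugs. The share of all genes with this last pattern was not counted, so the 8 have no background to be judged by. With the genes above, 22 members were called higher in all 3 drug tables, against 13.4% of all and 32.6% of abundant genes.

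The knockout over wild-type log2 ratio was larger under a drug than without one in 25 of 34 members with cisplatin, 31 with doxorubicin and 29 with tunicamycin, and the median difference was 0.24, 0.25 and 0.36. The 3 comparisons share the untreated groups. Tested genes at 50 FPKM or more also had larger median ratios under the drugs. Their medians were 0.02 without drug and 0.07, 0.19 and 0.16 with cisplatin, doxorubicin and tunicamycin. How many genes outside the proteasome had a larger ratio under a drug was not counted. In the alpha ring the difference from the untreated ratio was positive in 7 of 7 genes with each drug, with medians of 0.54, 0.62 and 0.60. In the beta ring the medians were 0.07, 0.25 and 0.14. The difference between treatments was not tested, since each group has 1 value and the tables were tested separately.

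Several of the genes called lower lie among neighbours that were lower as well. Chromosomes were cut at fixed positions into stretches of 10 Mb, so that a member can lie near the edge of its stretch. In each stretch the genes tested in all 4 treatments were taken, without any gene named PSMA, PSMB, PSMC or PSMD. A stretch was called shifted where their median log2 ratio was 0.3 or more from 0, in 1 direction, in all 4 treatments. By this rule 4 members lay in shifted stretches, all to the lower side. The 39 other genes around PSMC3 (chromosome 11, 40000001 to 50000000, GRCh38) had medians of -0.53, -0.47, -0.36 and -0.48 in untreated, cisplatin, doxorubicin and tunicamycin cells, beside -0.70, -0.31, -0.37 and -0.30 for PSMC3. The 90 genes around PSMB7 and PSMD5 (chromosome 9, 120000001 to 130000000) had medians of -0.42, -0.44, -0.46 and -0.45. PSMB1 sits near the end of chromosome 6, in a stretch cut at 170000001 that holds only 3 other tested genes. Their medians were -0.84, -0.40, -0.62 and -0.55.
The stretches around PSMD6 and PSMD9 came close to the rule, with medians of -0.42, -0.28, -0.31 and -0.35 over 15 genes and -0.34, -0.28, -0.39 and -0.29 over 67 genes. PSMD2 lay in a stretch with medians between -0.26 and -0.11. Among members called higher in all 4 treatments, PSMB5 lay in a stretch with medians of 0.22, 0.29, 0.30 and 0.35 over 67 genes. Around PSMD1 the medians were 0.28, 0.14, 0.24 and 0.33 over 35 genes. Around PSMC4 and PSMD8 they were -0.09, -0.12, 0.01 and -0.03. Among the members with opposite calls, the neighbours' medians around PSMA4 were -0.06, 0.03, 0.03 and -0.01, and around PSMA2 0.13, 0.03, 0.03 and 0.14. Those around PSMA6 were 0.01, 0.36, 0.24 and 0.32, beside its own -0.17, 0.37, 0.49 and 0.43.
Of the members called lower, 3 of 15 without drug, 3 of 5 with cisplatin, 2 of 7 with doxorubicin and 2 of 4 with tunicamycin lay in shifted stretches. The share of all tested genes, or of all genes called lower, in shifted stretches was not counted. These fractions thus have no background to be judged by. Over the 34 members, Spearman's rho between a member's ratio and its neighbours' median was 0.53, 0.68, 0.64 and 0.70. Over tested genes of 50 FPKM or more it was 0.41, 0.43, 0.34 and 0.41. These correlations are across genes of the same libraries, which are not independent replicates, and the part of the neighbourhood in any member's ratio was not tested.

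**Figure D3:**
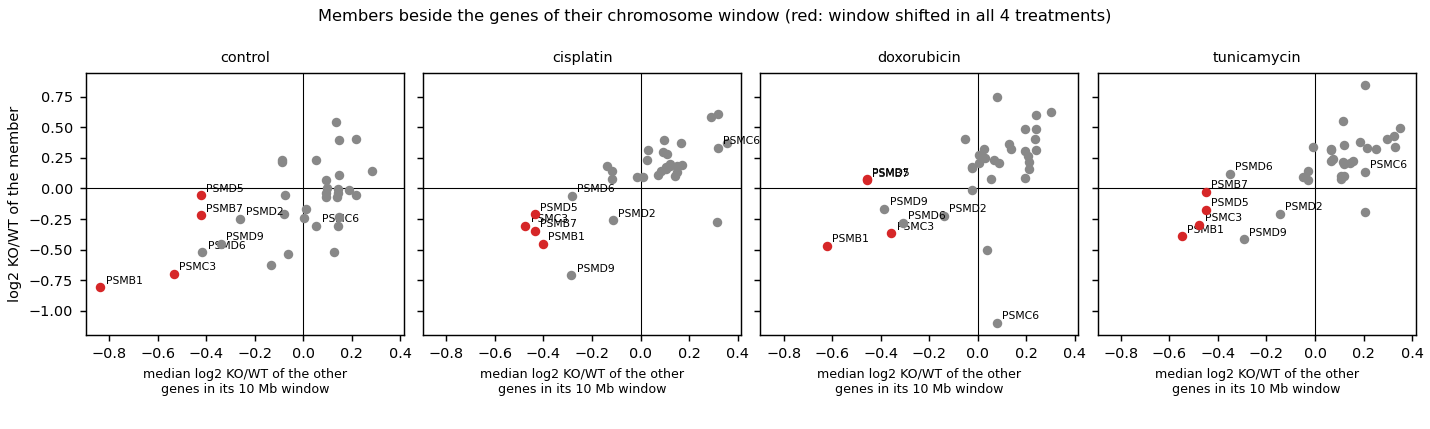
Each member's log2 ratio of knockout over wild-type FPKM (vertical axis) against the median log2 ratio of the other tested genes in its 10 Mb chromosome stretch (horizontal axis), 1 panel for each treatment; red points lie in stretches shifted in all 4 treatments. PSMB1 and PSMC3 are low together with their neighbours, whereas PSMC6 with doxorubicin lies at -1.10 beside a neighbour median of 0.08.

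Each drug was then set against control within a genotype, on log2 of FPKM plus 1 and with no test, since the tables hold no test between treatments. In wild-type cells the members' median response was 0.05 with cisplatin, -0.26 with doxorubicin and -0.36 with tunicamycin. In knockout cells it was 0.27, 0.15 and -0.02. The median of all 8590 genes of 5 FPKM or more was 0.11, -0.67 and -0.10 in wild-type and 0.14, -0.72 and -0.08 in knockout cells, so that relative to all genes the members stood at -0.06, 0.41 and -0.26 in wild-type and 0.13, 0.86 and 0.06 in knockout cells. The doxorubicin median of wild-type cells, the cisplatin median of wild-type cells and the tunicamycin median of knockout cells thus change sign with the scaling. Against the 2147 genes of 50 FPKM or more, whose medians with doxorubicin were 0.09 and 0.27, the members lay lower in both genotypes, and the knockout value turned to -0.12.

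With tunicamycin, 9 wild-type members were lower by 1.5-fold or more and 1 was higher, where 11.1% and 9.79% of 12345 genes of 1 FPKM or more were. In knockout cells none was lower and 1 was higher, against 8.38% and 7.6%. All 14 expressed core genes were below their untreated level in wild-type cells, and 5 of the 7 alpha genes by 1.5-fold or more. The alpha ring's median response was -0.36, -0.48 and -0.68 with cisplatin, doxorubicin and tunicamycin in wild-type cells and 0.17, 0.17 and -0.03 in knockout cells. In 6 of the 7 alpha genes the untreated group was the highest of the 4 wild-type groups, whereas it was the highest knockout group in 0 of 7. Over all 34 members, the untreated group was highest in 16 for the wild type and in 1 for the knockout. The share of other genes with the untreated group highest was not counted. These rankings also carry any difference between the separate normalizations of the treatments.

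With cisplatin, 4 wild-type members were higher by 1.5-fold or more and 1 was lower, against 19% and 11.6% of genes. In knockout cells 3 were higher and 0 lower, against 17.8% and 14.4%. The chaperone PSMD5 had the largest cisplatin response of the 34 in both genotypes, from 23.9 to 46.4 FPKM in wild-type and from 23.0 to 40.1 in knockout cells. It was also higher with tunicamycin, at 42.6 and 37.8 FPKM, and lower with doxorubicin, at 10.2 and 10.8. The lid genes PSMD3 and PSMD8 had cisplatin responses of 0.87 and 0.70 in wild-type and 0.65 and 0.54 in knockout cells on the log2 scale.

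With doxorubicin the medians of the roles lay further apart than with the other drugs. In wild-type cells 12 members were lower by 1.5-fold or more and 1 was higher, and in knockout cells 9 were lower and 4 higher. The background among genes of 1 FPKM or more was wide, at 53.2% lower and 10.3% higher in wild-type and 53.9% and 12.3% in knockout cells. Of the 2147 genes of 50 FPKM or more, 537 were lower by 1.5-fold or more and 480 higher in wild-type cells. In knockout cells 511 of them were lower and 680 higher. The lid had the lowest median of the roles, -1.39 in wild-type and -1.08 in knockout cells, while the beta ring stood at 0.13 and 0.32 and the non-ATPase base at 0.14 and 0.31. Cap genes lower by 1.5-fold or more in both genotypes numbered 8: the lid genes PSMD6, PSMD7, PSMD11, PSMD12 and PSMD14, the ATPases PSMC2 and PSMC6, and PSMD5. In the core only PSMA5 was.
PSMD12, a structural lid subunit, was at 85.2 FPKM without drug and 17.8 with doxorubicin in wild-type cells, and at 81.2 and 17.7 in knockout cells. PSMD7 went from 99.3 to 26.6 and from 99.8 to 34.2 FPKM, and PSMC6 from 102 to 35.3 and from 82.8 to 16.5. Each of these 3 genes had its lowest levels in the doxorubicin groups.
Within the same lid, PSMD8 was at 213 FPKM without drug and 315 with doxorubicin in wild-type cells and at 250.1 and 364 in knockout cells. PSMD13 went from 131 to 123 and from 126 to 152. PSMD2 and PSMA7 also had higher values with doxorubicin, from 824 to 1337 and from 649 to 841 FPKM in wild-type cells.
Drug over control ratios were also set beside gene length. For doxorubicin, Spearman's rho between the response and the annotated span of the gene was -0.42 in wild-type and -0.40 in knockout cells over 34 members, and -0.09 and -0.14 over 8208 protein-coding genes. For cisplatin it was -0.35 and -0.44 over the members and -0.41 and -0.50 over protein-coding genes, and for tunicamycin -0.26 and -0.23 over the members and 0.05 and 0.08 over protein-coding genes. These are descriptions across genes of the same libraries.

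**Figure D4:**
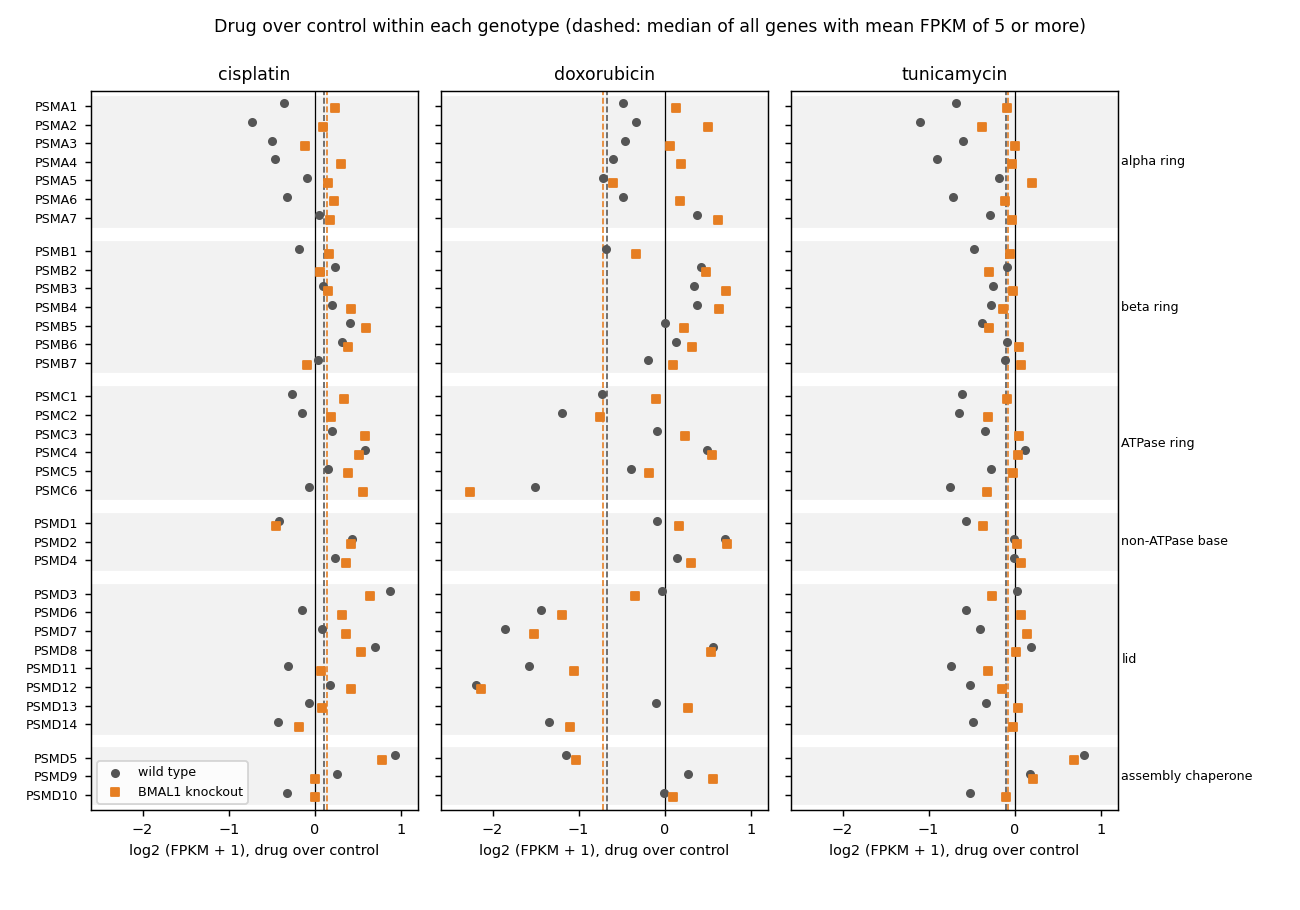
Log2 (FPKM + 1) of each drug over control within wild-type (circles) and knockout cells (squares) for the 34 expressed genes by role; dashed lines mark the median of all genes with a mean of 5 FPKM or more. Alpha ring circles lie left of the squares in each panel, and in the doxorubicin panel PSMD12 lies near -2 in both genotypes.

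Core and cap were compared as wholes. The median log2 ratio of knockout over wild type was higher in the core than in the cap by 0.02 without drug, 0.10 with cisplatin, 0.13 with doxorubicin and 0.20 with tunicamycin. For the drug responses, core minus cap was -0.14, -0.02 and 0.04 in wild-type cells with cisplatin, doxorubicin and tunicamycin, and -0.19, 0.35 and -0.04 in knockout cells. The wild-type doxorubicin value turned to 0.15 with no filter on low values, 0.08 without the members in shifted stretches and 0.13 without the chaperones, and the wild-type cisplatin value was -0.0284 without the members in shifted stretches. Levels within each particle spread more widely with doxorubicin: the SD of log2 FPKM over members was 1.72 in the cap and 1.06 in the core of wild-type cells, against 1.17 and 0.89 without drug.

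Other genes of the pathway were taken from 8 lists with 45 genes in all. Over all of them, 11 were called higher and 13 lower in the knockout without drug, 19 and 18 with cisplatin, 14 and 13 of 44 tested with doxorubicin, and 22 and 12 with tunicamycin. These lists thus did not lean to the higher side under cisplatin or doxorubicin as the subunit genes did, a difference that was not tested. As background, 22.7% of all tested genes were called higher and 21.1% lower without drug, and 25.4% and 24.2% with cisplatin. The shares were 24.4% and 20.7% with doxorubicin, and 27.2% and 22.1% with tunicamycin. Tested genes at 50 FPKM or more were at 37.6% and 35%, 45.7% and 33.1%, 59.7% and 24.4%, and 56.8% and 23.9%, in that order.
The interferon-inducible immunoproteasome subunits were all on the higher side: 2, 2, 3 and 3 of 3 were called higher without drug and with cisplatin, doxorubicin and tunicamycin, and none lower in the Cuffdiff test, also at an unadjusted p under 0.05. PSMB10, which replaces PSMB7, was at 21.1 and 57.2 FPKM without drug, 31.3 and 62.6 with cisplatin, 26.0 and 77.2 with doxorubicin and 23.5 and 58.4 with tunicamycin. PSMB8, which replaces PSMB5, had log2 ratios between 0.53 and 0.78.
Of the 3 named activator genes, PSME1 and PSME2 encode the activator that interferon induces and PSME3 a nuclear one. All 3 were called higher in every treatment, with log2 ratios of 0.47, 0.52, 0.81 and 0.70 for PSME1, 0.33, 0.68, 0.95 and 0.84 for PSME2 and 0.25, 0.28, 0.14 and 0.60 for PSME3. Over the list of 4 activators and 1 inhibitor, 4, 3, 3 and 4 were higher and 0, 1, 1 and 0 lower. At an unadjusted p under 0.05, 0 were lower without drug and 1 with tunicamycin.
Among 5 factors that assemble the core, 0 were called higher and 4 lower without drug, 3 and 2 with cisplatin, 1 and 0 with doxorubicin and 2 and 1 with tunicamycin. The counts of 0 were 0 without drug and 1 with doxorubicin at an unadjusted p under 0.05. POMP, the chaperone that matures the beta ring, was at 157 FPKM in wild-type and 146 in knockout cells without drug, 84.1 and 153 with cisplatin, 80.6 and 135 with doxorubicin and 62.7 and 120.4 with tunicamycin. Like PSMA3, it was lower in the wild type with each drug than without, and its log2 ratios were -0.11, 0.87, 0.74 and 0.94. PSMG3 was called lower without drug (-0.57), with cisplatin (-0.35) and with tunicamycin (-0.81), and PSMG2 lower without drug (-0.29) and higher with cisplatin (0.27).
Cap partners were called higher and lower in 1 and 0, 4 and 1, 2 and 1, and 4 and 1 of 5 genes, and 1 was lower without drug at an unadjusted p under 0.05. The ubiquitin receptor ADRM1 was called higher in each treatment (0.32, 0.07, 0.49 and 0.20), and its level was 287 FPKM without drug and 65.3 with doxorubicin in wild-type cells. The deubiquitinase USP14 was called higher with cisplatin (0.28) and tunicamycin (0.21), as was the small lid subunit SHFM1 (0.13 and 0.32), which was also higher with doxorubicin (0.17).
In the NRF1 list, 2 genes were called higher and 3 lower without drug, 2 and 4 with cisplatin, 0 and 4 of 9 tested with doxorubicin, and 3 and 4 with tunicamycin. The count of 0 was also 0 at an unadjusted p under 0.05. NFE2L1 itself was not called in any treatment. It was at 95.0 FPKM in untreated wild-type cells and 182, 187 and 203 with cisplatin, doxorubicin and tunicamycin, and in knockout cells at 103, then 182, 182 and 215. VCP, the segregase that feeds NRF1 and other substrates out of the endoplasmic reticulum, was called lower each time (-0.33, -0.46, -0.23 and -0.50). SEL1L and MAFG were called higher without drug (0.83 and 0.77) and with tunicamycin (0.79 and 0.69), and SEL1L was lower with cisplatin (-0.44) and doxorubicin (-0.55).
The shuttle factors, which carry ubiquitinated proteins to the proteasome, were called lower more often than higher. The background of lower calls was 20.7% to 24.2% of all tested genes and 23.9% to 35% of those at 50 FPKM or more. Of 6, 0 were called higher and 4 lower without drug, 2 and 4 with cisplatin, 0 and 5 with doxorubicin and 1 and 5 with tunicamycin, and the counts of 0 were also 0 at an unadjusted p under 0.05. RAD23B (-0.44, -0.33, -0.52 and -0.32) and UBQLN1 (-0.36, -0.39, -0.86 and -0.49) were lower in every treatment, and ZFAND5 was lower without drug (-0.41), with cisplatin (-0.36) and with tunicamycin (-0.20).
Ubiquitin genes and activating enzymes were higher and lower in 2 and 2, 2 and 3, 5 and 1, and 4 and 1 of 6. RPS27A, which encodes ubiquitin fused to a ribosomal protein, was called lower without drug (-0.48). With cisplatin, doxorubicin and tunicamycin it was called higher (0.06, 0.15 and 0.13). Of the 5 VCP cofactors none was called without drug, 1 was higher and 3 lower with cisplatin, 0 and 1 with doxorubicin, and 1 and 0 with tunicamycin, and at an unadjusted p under 0.05 the counts with a 0 were 1 higher and 0 lower, 1 and 1, and 1 and 0. NPLOC4 (-0.29) and UFD1L (-0.17) were lower with cisplatin, and NSFL1C (-0.35) with doxorubicin.

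Some counts may be shared between genes. On the GENCODE 29 annotation, 18 of the 36 genes overlap another annotated gene, and the strandedness of the counting is not given in the sources used here. For 11 members the tables also list pseudogenes, whose summed mean level was at most 1.93% of the gene's own (PSMD10, with PSMC1 next at 1.05%).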

How the data were processed

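RNA of 16 samples was made into TruSeq mRNA libraries and sequenced as paired reads on a HiSeq, per the labels' protocols. The extraction text there names fibroblasts, at odds with the cell line label, MDA-MB-231. FastQC 0.11.5, Trimmomatic 0.35, STAR 2.5.3, Cufflinks, Cuffdiff and the build hg38 are named, the last tools with no version, per the submitters' processing notes. Which gene annotation was used is not given in the sources used here. Each table deposited by the authors gives 1 FPKM per gene and group, the log2 fold change of knockout over wild type, a test statistic (a score not used here), and p-values with q-values from Cuffdiff, per the file headers. Each group value pools 2 samples, and depth per sample is unknown.

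A call is a q-value of 0.05 or less among tested genes in the authors' deposited test. Log2 ratios were recomputed from FPKM and differed from the deposited log2 values by at most 4.64e-05. Drug responses used log2 of FPKM plus 1, for genes with a mean of 1 FPKM or more, and carry no test. Genes were placed with GENCODE 29, which matched 57047 rows and all 36 members. Promoters came from RefSeq. Python 3.11.15, pandas 2.3.3, numpy 2.4.6 and matplotlib 3.10.9 were used, and the counting of calls was tested on simulated data. Named genes were the 3 highest and 3 lowest ratios among called members of each table, PSMB5, PSMB6, PSMB7 and PSMD14, members that carry a pattern (any member could be named), and up to 3 genes of each pathway list with the smallest q-values without drug. POMP belongs to these. Some list genes that this rule names are not reported here. NFE2L1 and the 4 members with printed promoters were chosen by role or after their values were seen. The members and lists were chosen with earlier results of these data known. Alternatives were a stricter q-value, a fold threshold, other pseudocounts, centrings and filters, and leaving out the chaperones or the members in shifted chromosome stretches.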

Additional observations from a re-analysis of the deposited data

Results flagged for a closer look

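Between untreated and drug-treated cells, some members were called in opposite directions in the knockout against wild-type comparison. With cisplatin there were 7 (PSMA1, PSMA2, PSMA4, PSMA6, PSMC1, PSMC6 and PSMD11), with doxorubicin 8 (PSMA1, PSMA2, PSMA4, PSMA6, PSMB7, PSMC1, PSMC2 and PSMD11) and with tunicamycin 8 (PSMA1, PSMA2, PSMA4, PSMA6, PSMC1, PSMC6, PSMD6 and PSMD11). In each case the member was called lower in the knockout without drug and higher with the drug, and 0 members went the other way. The share of all genes with opposite calls was not counted for single drugs. A lower call without drug and higher calls with all 3 drugs were held by 0.974% of 10881 genes. Among the 2140 of them with a mean of 50 FPKM or more, the share was 4.49%. The 3 comparisons share the untreated groups, and the difference between treatments was not tested, since each group has 1 deposited value.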

How the results depend on the processing

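No paired analysis was possible because the tables hold 1 value per group and none per sample, and for the same reason leaving out a sample was not run. Of 166 values of the comparisons' summaries under the alternatives, 13 changed sign, 10 of them from a reported value within 0.05 of 0. A q-value of 0.01 moved no count of calls by over 1.5 times, but 7 single calls missed it. Requiring a 1.5-fold change left 3 calls without drug (0 higher, 3 lower), 3 with cisplatin (2 and 1), 4 with doxorubicin (3 and 1) and 1 with tunicamycin (1 and 0). Without the members in shifted chromosome stretches, lower calls were 2 with cisplatin and 2 with tunicamycin; without PSMD6 and PSMD9 as well, an alternative chosen after seeing the data, they were 1 with cisplatin, 3 with doxorubicin and 1 with tunicamycin. These counts of lower calls fall because genes called lower were among those left out.

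Centring on genes of 50 FPKM or more, also chosen after seeing the data, gave median knockout over wild-type ratios of 0.0272 with doxorubicin and 0.0557 with tunicamycin. Centring on all genes of 5 FPKM or more turned PSMB7 with doxorubicin to -0.00595 and PSMD8 with tunicamycin to -0.00588. Subtracting all genes of 5 FPKM or more from the drug responses gave -0.0644, 0.41 and -0.26 for cisplatin, doxorubicin and tunicamycin in wild-type cells, and 0.13 and 0.86 for cisplatin and doxorubicin in knockout cells. Dividing by the upper quartile gave -0.0676 and 0.41 for cisplatin and doxorubicin in wild-type cells and 0.14 and 0.82 in knockout cells. Subtracting genes of 50 FPKM or more gave -0.21 with tunicamycin in wild-type cells, and 0.15 with cisplatin and -0.12 with doxorubicin in knockout cells. Small medians changed sign in further cases: wild-type cisplatin was -0.00954 without the shifted stretches and -0.0405 after subtracting genes of 50 FPKM or more, and knockout tunicamycin was 0.0565, 0.0266 and 0.0426 after subtracting all genes of 5 FPKM or more, the upper quartile and genes of 50 FPKM or more. The wild-type doxorubicin median was -0.14 with no filter on low values. Core minus cap in wild-type cells was -0.0284 with cisplatin without the shifted stretches, and with doxorubicin 0.15 with no filter, 0.0807 without the shifted stretches and 0.13 without the chaperones. The cause of the moves other than those in counts was not tested.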
